A study of Mus musculus with 4 samples.

Results

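The microRNAs (miRNAs) described here are the mature products of hairpins that lie inside the Hox gene clusters: mmu-miR-10a-5p, mmu-miR-10a-3p, mmu-miR-10b-5p, mmu-miR-10b-3p, mmu-miR-196a-5p and mmu-miR-196b-5p. They were taken by name from a table of read counts per miRNA, and all 6 were among its 847 rows. The counts come from small RNA libraries of macrophages sorted from bone marrow (BM) and spleen of C57BL/6J mice aged 6 to 8 weeks. The design sets macrophages of leukaemic mice, termed leukaemia-associated macrophages, against those of homeostasis. There were 4 libraries, 1 per group: normal BM, AML BM, normal spleen and AML spleen.

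AML stands for acute myeloid leukaemia, here driven by MLL-AF9, a fusion of the histone methyltransferase gene MLL with AF9. GFP+ leukaemia cells from diseased mice were transferred into unirradiated recipients, and AML macrophages were collected at 18 days, in a model with a survival of 35 to 40 days. Without irradiation the recipients kept their own haematopoiesis beside the transferred cells. Sort markers, the number of mice behind each library, pooling and the day on which the normal libraries were taken are not stated in the labels.

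With 1 library per group no difference has a replicate check, and each statement below compares libraries and not conditions. Total counts were 206652 in normal BM, 271209 in AML BM, 435492 in normal spleen and 180227 in AML spleen. Levels are counts per 1000000 library counts (CPM) after TMM scaling, a correction for composition. Brackets hold 95% exact intervals that cover counting error only. A miRNA was called different at a ratio of at least 2 or at most 0.5, with an interval that left out 1 and at least 30 counts in the larger library. A library at 0 counts entered as 3 counts, which gives a bound that leaves out the counting error of the other count.

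Hox genes encode homeodomain transcription factors that set position along the body axis, and in blood several of them act in stem and progenitor cells. MLL fusion proteins keep HOXA genes active, and miR-196b, which sits among them, is transcribed with them in MLL-rearranged leukaemia cells. miR-10a and miR-10b are also widely expressed outside blood, in endothelium, stroma and epithelium. Both families pair with messenger RNAs of Hox genes among other targets: Hoxb8 is a known target of miR-196, and Hoxd10 of miR-10b.

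Sequences are shown first because the members differ so little from each other. All 6 had a mature sequence in RefSeq (GRCm38.p6). Capitals mark the seed, bases 2 to 8, which directs target pairing.
miR-10a-5p: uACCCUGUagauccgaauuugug
miR-10b-5p: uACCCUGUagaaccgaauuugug
miR-196a-5p: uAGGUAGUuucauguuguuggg
miR-196b-5p: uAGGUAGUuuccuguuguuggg
miR-10a-3p: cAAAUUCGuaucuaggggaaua
miR-10b-3p: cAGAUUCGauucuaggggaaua
Counted from the 5′ end, miR-10b-5p differs from miR-10a-5p by U12A alone, and miR-196b-5p from miR-196a-5p by A12C alone, so each pair shares 1 seed. miR-10b-3p differs from miR-10a-3p at 3 positions (A3G, U9A and A10U), the first of them in the seed. No other row of the table with a RefSeq sequence carried the seed of miR-10a-5p or that of miR-196a-5p. No source used here says how reads with mismatches were divided between such near-identical miRNAs, so the sum over each seed is given beside the single members.

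The hairpins have matching places in different Hox clusters. Those of miR-10 are printed because the balance of their arms differed between libraries, and that of miR-196b because it lies in the Hoxa cluster, the one tied to MLL fusions. Capitals mark both mature arms.
Mir10a: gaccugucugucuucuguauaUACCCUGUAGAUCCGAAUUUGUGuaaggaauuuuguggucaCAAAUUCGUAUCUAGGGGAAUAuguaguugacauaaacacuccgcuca
Mir10b: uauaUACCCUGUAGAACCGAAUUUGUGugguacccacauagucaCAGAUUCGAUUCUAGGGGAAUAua
Mir196b: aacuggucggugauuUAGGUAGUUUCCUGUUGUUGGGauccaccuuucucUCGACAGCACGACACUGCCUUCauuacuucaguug
Mir10a lies at chr11:96317165-96317274 on the plus strand, between Hoxb5 and Hoxb4 and outside both genes. Mir10b, at chr2:74726070-74726137 (plus strand), falls within the GENCODE M21 gene spans of Hoxd3 and Hoxd4 and overlaps no exon of either. Mir196b, at chr6:52230081-52230165 (minus strand), overlaps exons of non-coding Hoxa9 transcripts, with Hoxa10 as its next coding neighbour. The product miR-196a-5p comes from 2 hairpins, and its reads cannot be assigned to one of them. Mir196a-1 lies at chr11:96265164-96265265 (plus strand) between Hoxb13 and Hoxb9. Mir196a-2 lies at chr15:102973350-102973434 (plus strand) between Hoxc10 and Hoxc9, within the annotated span of Hoxc5 and outside its exons.

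The 6 members together made up 4.72% of the reads of normal BM, 3.40% of AML BM, 0.642% of normal spleen and 3.30% of AML spleen. Nearly all of these reads were 5p arms of miR-10. miR-10a-5p alone held 66.8%, 69.4%, 75.0% and 64.6% of the member reads in the same order of libraries, and miR-10b-5p held 31.6%, 27.3%, 23.1% and 34.9%. miR-196b-5p contributed at most 2.12%, in AML BM, and as little as 0.0841%, in AML spleen. In sorted bulk cells, a change in the share of a cell type and a change in RNA per cell cannot be told apart, which holds for every level below.

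**Figure D1:**
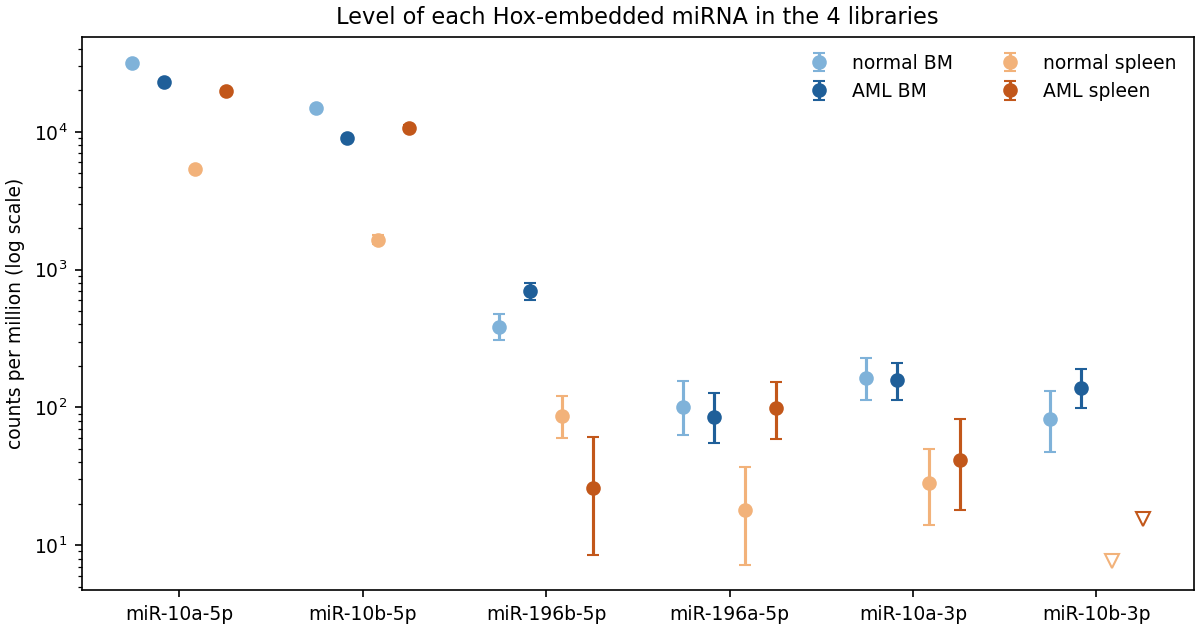
Level of each Hox-embedded miRNA in CPM (log scale) in the 4 libraries; bars are 95% exact Poisson intervals, and open triangles mark a library at 0 counts, drawn at the level of 3 counts. The 5p arms of miR-10 were lowest in normal spleen, at 5346 and 1650 CPM, whereas miR-196b-5p was lowest in AML spleen, at 25.9 CPM.

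miR-10a-5p and miR-10b-5p were abundant in both BM libraries and in AML spleen, and several-fold lower in normal spleen. miR-10a-5p had 6512 counts in normal BM, 6407 in AML BM, 2096 in normal spleen and 3843 in AML spleen, which is 31402, 22849, 5346 and 19918 CPM. Normal spleen, the most deeply sequenced library, thus stood lowest, and the counting intervals of the 4 levels did not overlap. By rank of abundance miR-10a-5p was number 7 of the detected rows in normal BM, 11 in AML BM and AML spleen, and 33 in normal spleen.

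miR-10b-5p had 3080, 2522, 647 and 2073 counts in normal BM, AML BM, normal spleen and AML spleen, or 14852, 8994, 1650 and 10744 CPM. The order of the libraries differed from that of miR-10a-5p in 1 place only: AML spleen stood above AML BM. The gap between these libraries was small for both miRNAs, with log2 ratios of AML spleen to AML BM of 0.26 [0.17 to 0.34] for miR-10b-5p and -0.20 [-0.26 to -0.14] for miR-10a-5p. Summed over the seed, the ratio of AML spleen to AML BM was 0.963, and it lay between 0.941 and 1.01 over the scalings tried.

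Within a library the balance of miR-10b-5p to miR-10a-5p does not depend on scaling. It was 0.473 [0.453 to 0.494] in normal BM, 0.394 [0.376 to 0.412] in AML BM, 0.309 [0.282 to 0.337] in normal spleen and 0.539 [0.511 to 0.569] in AML spleen. No pair of these intervals overlapped. From the normal to the AML library the balance differed in opposite directions, by a factor of 0.832 [0.781 to 0.887] in BM and 1.75 [1.57 to 1.94] in spleen. Between the highest and the lowest library, normal BM and normal spleen, miR-10b-5p from the Hoxd cluster spanned 9.0-fold and miR-10a-5p from the Hoxb cluster 5.87-fold.

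miR-196b-5p, from the Hoxa cluster, was higher in both BM libraries than in either spleen library. The same held for miR-10a-5p, with AML spleen close to AML BM, but not for miR-10b-5p. Unlike both 5p arms of miR-10, miR-196b-5p was lowest in AML spleen. It had 80 counts in normal BM, 196 in AML BM, 34 in normal spleen and 5 in AML spleen, or 386, 699, 86.7 and 25.9 CPM. AML BM was highest and AML spleen lowest, and only the intervals of the 2 spleen libraries touched, at 60.1 to 121 CPM in normal spleen and 8.41 to 60.5 CPM in AML spleen. In AML spleen it was 27-fold lower than in AML BM, a log2 ratio of -4.75 [-6.39 to -3.51], which rests on the 5 counts of AML spleen.

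Its near-identical partner miR-196a-5p, from the Hoxb and Hoxc clusters, was thinly covered, with 21, 24, 7 and 19 counts in normal BM, AML BM, normal spleen and AML spleen. These are 101, 85.6, 17.9 and 98.5 CPM. Normal spleen was low and the other libraries had overlapping intervals, so here, as for the 5p arms of miR-10, normal spleen was the lowest. The ratio of miR-196b-5p to miR-196a-5p was 3.81 [2.33 to 6.49] in normal BM, 8.17 [5.33 to 13.1] in AML BM and 4.86 [2.12 to 13.0] in normal spleen. In AML spleen it was 0.263 [0.0768 to 0.729], the only library in which miR-196a-5p was the more abundant.

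Summed over the miR-196 seed, the counts were 101, 220, 41 and 24 in normal BM, AML BM, normal spleen and AML spleen. The sum stood at 487 and 785 CPM in the BM libraries and at 105 and 124 CPM in the spleen libraries. The log2 ratio of the sum in AML spleen against normal spleen was 0.25 [-0.54 to 1.01], so a change between the spleen libraries was not detectable at this depth. The single members had opposed values: -1.74 [-3.45 to -0.38] for miR-196b-5p and 2.46 [1.15 to 3.96] for miR-196a-5p, the latter below the minimum of 30 counts.

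The 3p arms of miR-10, the less abundant strands of the hairpins, were also higher in both BM libraries than in either spleen library. miR-10a-3p had 34 counts in normal BM, 44 in AML BM, 11 in normal spleen and 8 in AML spleen. miR-10b-3p had 17, 39, 0 and 0 counts in the same order. The limit of 3 counts at each 0 corresponds to 7.65 CPM in normal spleen and 15.5 CPM in AML spleen, against 82.0 CPM in normal BM and 139 CPM in AML BM.

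The 5p to 3p balance of the same hairpin shows how far the arms parted. For Mir10b it was 181 [113 to 311] in normal BM, 64.7 [47.2 to 91.2] in AML BM, at least 216 in normal spleen and at least 691 in AML spleen. At the balance of AML BM, the 2073 counts of miR-10b-5p in AML spleen would go with 32.1 counts of miR-10b-3p, and at that of normal BM with 11.4, where 0 were found. In normal spleen the 647 counts would go with 10 and with 3.57 in the same order. A parting of the arms between the normal libraries could thus not be told at this depth. Between AML BM and normal BM the balance differed by a factor of 0.357 [0.189 to 0.648]. For Mir10a the balance was 192 [137 to 277] in normal BM, 146 [108 to 201] in AML BM, 191 [106 to 382] in normal spleen and 480 [244 to 1114] in AML spleen. Between AML spleen and AML BM it differed by a factor of 3.30 [1.53 to 8.12], and between the normal libraries by 0.995 [0.491 to 2.18].

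**Figure D2:**
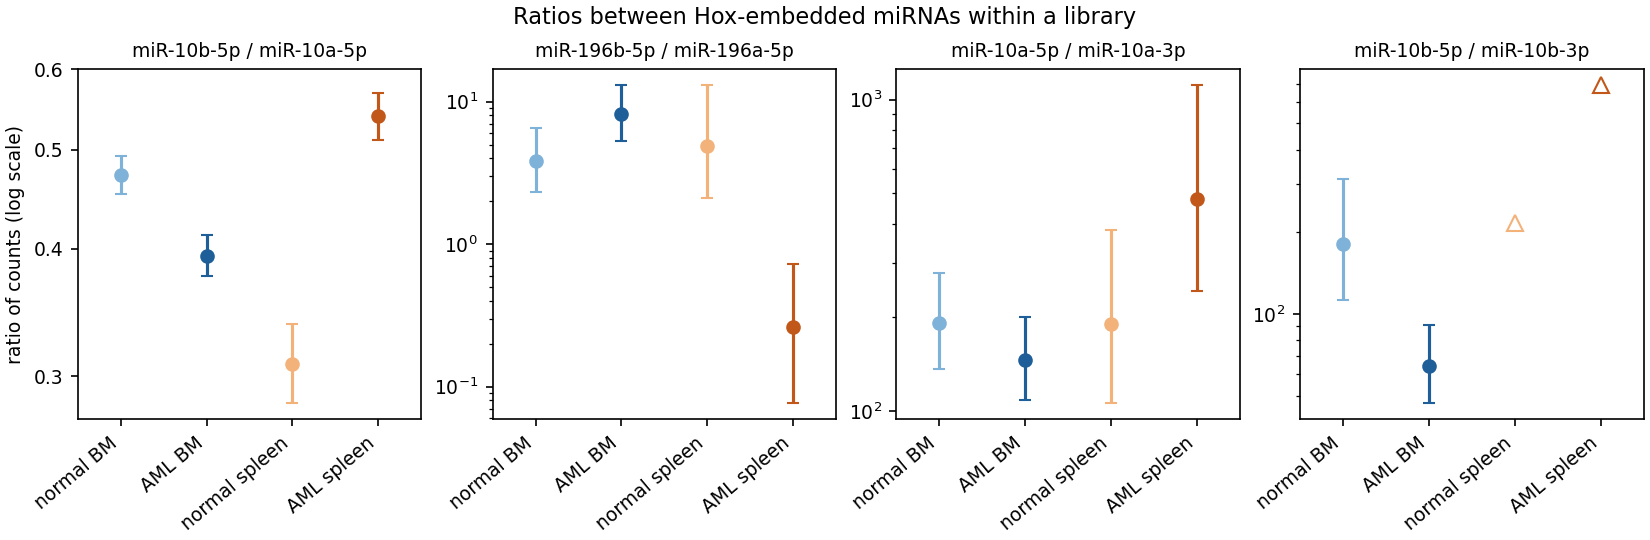
Ratio of 2 Hox-embedded miRNAs within each library (log scale), with 95% exact intervals. Open triangles are values with the 0 counts of a 3p arm entered as 3 counts. In AML spleen miR-196b-5p was less abundant than miR-196a-5p (0.263), and the 5p to 3p ratio of Mir10a reached its highest value, 480. For Mir10b both spleen values (216 and 691) are of this kind and carry no interval.

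Between leukaemic and normal BM the members stayed under 2-fold. None of the 5 members compared was called, where 13.4% of all 216 miRNAs compared were higher and 12.0% lower. The log2 ratio was -0.46 [-0.51 to -0.41] for miR-10a-5p, -0.72 [-0.80 to -0.65] for miR-10b-5p and 0.86 [0.48 to 1.25] for miR-196b-5p. These intervals left out 0. miR-196b-5p did pass 2-fold, at 1.05, under a scaling on the total of all but the 10 most abundant miRNAs. The 3p arms stood at -0.06 [-0.74 to 0.63] for miR-10a-3p, whose sign changed with that scaling, and 0.76 [-0.09 to 1.68] for miR-10b-3p. miR-196a-5p, with too few counts to be called, had a value of -0.24 [-1.15 to 0.67].

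The leukaemic and normal spleen libraries parted the members in both directions. Of 3 members compared, 2 were called higher and 1 lower, where 25.0% of all 216 miRNAs were higher and 21.3% lower. miR-10a-5p was 3.73-fold higher in AML spleen, and its log2 ratio was 1.90 [1.82 to 1.98]. miR-10b-5p was 6.51-fold higher, at 2.70 [2.57 to 2.83]. miR-196b-5p was 3.35-fold lower (log2 ratio -1.74, as above). The other members had too few counts: miR-10a-3p had a log2 ratio of 0.56 [-0.95 to 2.01], and miR-10b-3p was at 0 in both libraries.

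Set against each other, the AML ratios of the tissues had opposite signs for these 3 members. The ratio of the spleen exceeded that of the BM by 2.36 [2.26 to 2.45] on the log2 scale for miR-10a-5p and by 3.43 [3.28 to 3.58] for miR-10b-5p. For miR-196b-5p it was smaller, at -2.59 [-4.35 to -1.16]. Opposite signs were not particular to these members. They were also found for miR-100-5p (gap 3.66), miR-143-3p (3.09), miR-1a-3p (4.14), miR-181a-5p (-2.62) and miR-92a-3p (-1.81), among others. By contrast, miR-126a-5p had the same sign in BM (0.38) and spleen (3.32). The share of all miRNAs with opposite signs was not counted. The intervals hold counting error only, and the difference was not tested over mice.

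Normal spleen stood below normal BM for every member compared. All 4 were called lower, where 35.5% of 234 miRNAs were lower and 30.8% higher. The log2 ratio was -3.17 [-3.29 to -3.05] for miR-10b-5p and -2.55 [-2.63 to -2.48] for miR-10a-5p. For miR-10a-3p it was -2.55 [-3.68 to -1.53], close to that of its 5p arm. miR-196b-5p had -2.15 [-2.78 to -1.56]. Below the count minimum, miR-196a-5p had -2.50 [-3.98 to -1.22], and miR-10b-3p was at least 10.7-fold lower.

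Between the leukaemic libraries the 3p arms and miR-196b-5p differed while the 5p arms of miR-10 did not reach 2-fold. Of 5 members compared 3 were lower in AML spleen than in AML BM and none higher, where 21.3% of 211 miRNAs were lower and 13.7% higher. miR-10a-3p had a log2 ratio of -1.92 [-3.22 to -0.82], and miR-10b-3p was at least 8.94-fold lower. The 4 comparisons share libraries (each library enters 2 of them), so their values are not independent of each other.

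**Figure D3:**
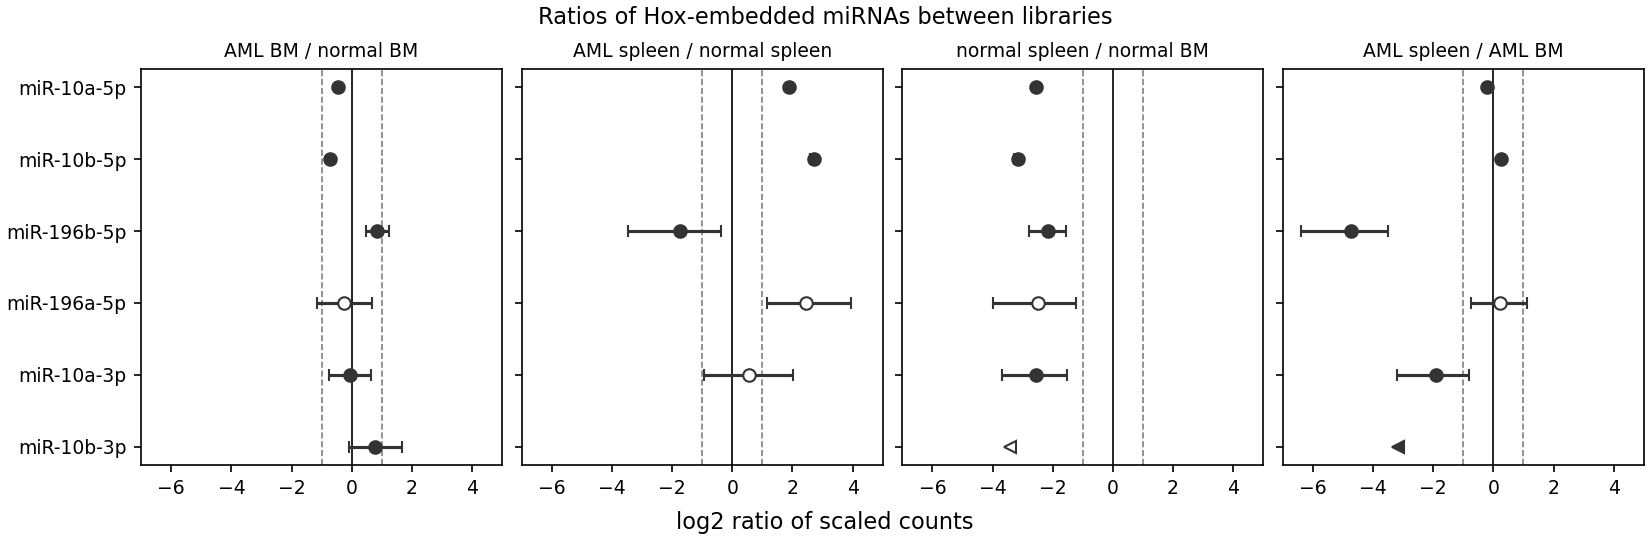
Log2 ratio of scaled counts for the Hox-embedded miRNAs in the 4 comparisons, with 95% exact conditional intervals; dashed lines mark 2-fold, open symbols fewer than 30 counts in the larger library, and arrowheads upper bounds. miR-10a-5p and miR-10b-5p lay right of the upper 2-fold line in AML spleen against normal spleen (1.90 and 2.70), where miR-196b-5p lay left of the lower one (-1.74).

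A model over all 4 libraries, with tissue and state as additive terms, gave no call. It held 5 of the 6 members, since miR-196a-5p stayed under 30 counts in every library. edgeR's quasi-likelihood test with Benjamini-Hochberg adjustment called 0 of 246 miRNAs (0%) for the AML effect and 0 of 246 (0%) for the tissue effect. At an unadjusted p under 0.05 there were 0 for AML and 15 for tissue. The model had 1 residual degree of freedom, which holds whatever part of the AML ratio is not shared by spleen and BM. Its tissue effect, spleen minus BM, had an unadjusted p of 0.014 (adjusted 0.625, edgeR) for miR-10b-3p and 0.0357 (adjusted 0.718, edgeR) for miR-196b-5p, which had a log2 value of -3.27. For miR-10a-5p and miR-10b-5p the adjusted p of edgeR was 0.76 and 0.767, with log2 values of -1.31 and -1.39. DESeq2's Wald test on the same model called 8 miRNAs for tissue, among them miR-10b-3p (adjusted p 0.0261) and miR-196b-5p (adjusted p 0.0454), and 0 for AML. At an unadjusted p under 0.05 it had 34 for tissue and 0 for AML. limma called 0 for both effects, with 21 for tissue and 1 for AML at an unadjusted p under 0.05.

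Other rows of the table come from hairpins in the same clusters. miR-615-3p, from the Hoxc5 region, had 10 counts in normal BM, 40 in AML BM, 30 in normal spleen and 20 in AML spleen. It was called higher in AML BM than in normal BM, with a log2 ratio of 1.56 [0.54 to 2.73], and neither in the other 3 comparisons. The 3p arms of the miR-196a hairpins had few counts. miR-196a-1-3p had 4 counts in AML BM and 0 elsewhere, and miR-196a-2-3p had 2 in normal BM, 4 in normal spleen and 0 in the AML libraries.

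miR-99a, miR-99b and miR-100 are relatives of miR-10 with a closely similar sequence and a seed of their own, shown here to set it beside that of miR-10.
miR-100-5p: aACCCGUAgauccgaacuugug
miR-99a-5p: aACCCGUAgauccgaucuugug
miR-99b-5p: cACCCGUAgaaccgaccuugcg
Of these 3 rows none was called between AML BM and normal BM (median log2 ratio -0.52, against 0.00 over all compared miRNAs). Over all miRNAs 13.4% were higher there and 12.0% lower. In AML spleen against normal spleen 3 of 3 were higher (median 1.53, against -0.25), where 25.0% of all were. All 3 were lower in normal spleen than in normal BM (median -2.42, against 0.19), where 35.5% of all were. None was called in AML spleen against AML BM (median 0.34, against -0.12), where 13.7% of all were higher and 21.3% lower. miR-100-5p had 807, 673, 152 and 585 counts in normal BM, AML BM, normal spleen and AML spleen. Its log2 ratio in AML spleen against normal spleen was 2.97 [2.71 to 3.23]. The 3p arms of these hairpins held at most 18 counts in a library.

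Likeness of profile was taken as the distance between mean-centred log2 levels over the 4 libraries, among the 246 miRNAs that reached 30 counts in a library. Closest to miR-10b-5p were miR-100-5p (0.178), miR-199a-3p (0.209), miR-143-3p (0.231), miR-192-5p (0.364) and miR-30a-5p (0.365). Closest to miR-10a-5p were miR-30c-2-3p (0.103), miR-30b-5p (0.225), miR-455-5p (0.257), miR-218-5p (0.336) and miR-200b-3p (0.357), with miR-10b-5p at place 22. For miR-196b-5p the nearest known miRNAs were miR-223-5p (1.28), miR-10b-3p (1.28, with that row at 0 counts in both spleens), miR-144-3p (1.47) and miR-351-5p (1.5), after a predicted miRNA at 0.685. Of 245 rows ordered by distance from miR-196b-5p, miR-10a-5p was at place 70 and miR-10b-5p at place 141.

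Distances from the 3p arms of miR-10 rest on fewer counts. Nearest to miR-10a-3p were miR-3473e (0.216), miR-125a-5p (0.621), miR-139-3p (0.651), miR-101b-3p (0.659) and miR-450a-5p (0.672), with miR-10a-5p at place 29. miR-10b-3p had 0 counts in both spleen libraries, so its levels there are set by the prior count of 2, and its distances and their order depend on that choice. At this prior count the rows nearest to it were the same predicted miRNA, miR-3473b, miR-196b-5p, miR-7687-5p and miR-149-3p. These distances describe 4 libraries and carry no test.

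Some lists of markers of other cells were lowest in normal spleen, as the 5p arms of miR-10 were. The sums of the lymphocyte, myeloid and erythroid lists, given below, were highest there. A list of 10 stromal and endothelial miRNAs, such as miR-143-3p and miR-126a-3p, summed to 32251 CPM in normal BM, 22332 in AML BM, 3673 in normal spleen and 22277 in AML spleen, with all 10 detected in each. In AML spleen against normal spleen 6 of 6 compared were higher (median log2 ratio 2.67), where 25.0% of all miRNAs were and their median was -0.25. In AML BM against normal BM 3 of 9 were lower (median -0.77), where 12.0% of all were (median 0.00). All 9 compared were lower in normal spleen than in normal BM (median -3.15), where 35.5% of all were (median 0.19). miR-10b-5p per count of this list was 0.461 [0.441 to 0.481], 0.403 [0.384 to 0.422], 0.449 [0.409 to 0.493] and 0.482 [0.457 to 0.508] in the same order. Between AML spleen and normal spleen this share changed by a factor of 1.07 [0.964 to 1.20], where the level itself changed 6.51-fold. The factor was 0.875 [0.821 to 0.932] for AML BM against normal BM and 1.20 [1.12 to 1.29] for AML spleen against AML BM. miR-143-3p held 4124 of the 6688 counts of the list in normal BM and 2616 of 4298 in AML spleen. It and miR-199a-3p were among the profiles nearest to miR-10b-5p, so these shares partly restate that likeness. miR-10a-5p per count of the list was 0.974, 1.02, 1.46 and 0.894, and miR-196b-5p per count of it was 0.0120, 0.0313, 0.0236 and 0.00116. The pairing of members with marker lists was chosen after the levels were seen. The part of stromal or endothelial RNA in these results was not tested.

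**Figure D4:**
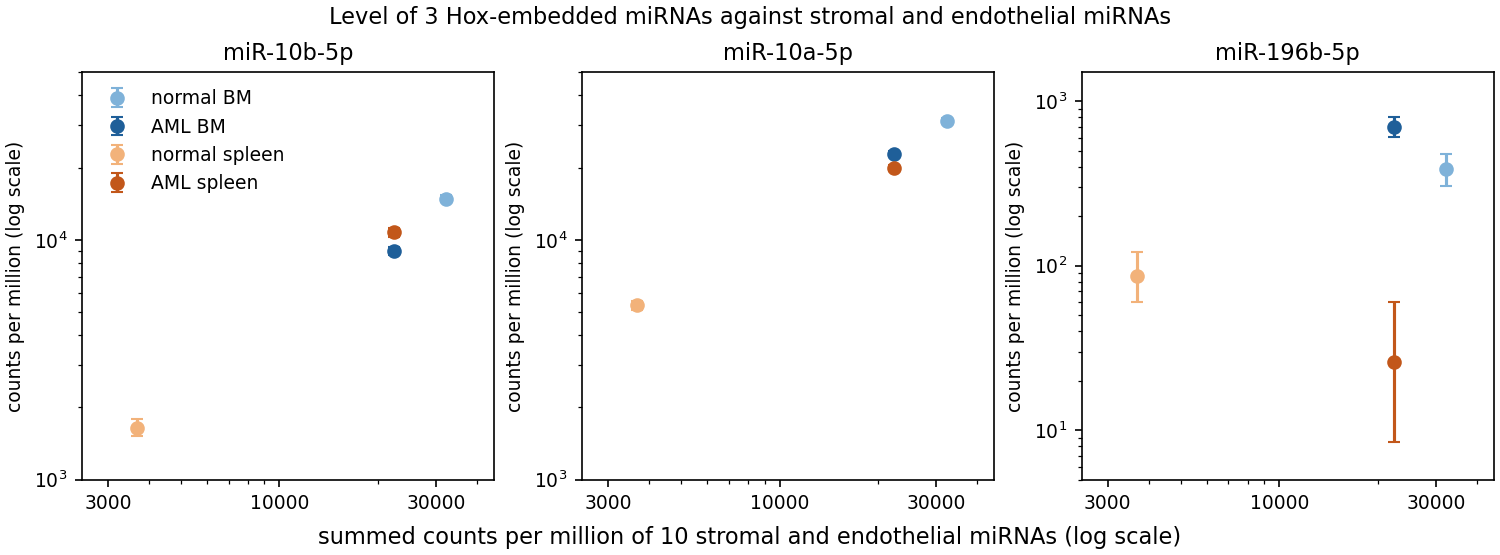
Levels of miR-10b-5p, miR-10a-5p and miR-196b-5p (vertical, CPM, log scale, bars 95% exact Poisson intervals) against the summed level of 10 stromal and endothelial miRNAs (horizontal, log scale), 1 point per library. miR-10b-5p was lowest, at 1650 CPM, and highest, at 14852 CPM, in the libraries in which the list was, while miR-196b-5p differed between 699 and 25.9 CPM in the AML libraries at nearly equal values of the list (22332 and 22277).

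The other marker lists are given by their sums, and the shares and medians over all miRNAs given with the comparisons are the background of their calls. Muscle, liver and epithelial miRNAs (8 of 8 detected in each library) had 54843 CPM in normal BM, 22564 in AML BM, 5032 in normal spleen and 22287 in AML spleen, again lowest in normal spleen. Of these, 6 of 7 were higher in AML spleen than in normal spleen (median 2.10) and 5 of 8 lower in AML BM than in normal BM (median -1.45). Between AML spleen and normal spleen, miR-10a-5p per count of this list changed by a factor of 0.841 [0.780 to 0.908]. Per count of the stromal and endothelial list the factor was 0.614 [0.567 to 0.666]. For miR-10b-5p the factors were 1.47 [1.32 to 1.63] and 1.07 [0.964 to 1.20]. A myeloid list, the arms of miR-223 and miR-142a, had 723, 1797, 7179 and 2488 CPM, lowest in normal BM and highest in normal spleen, and 4 of 4 rows were detected in each library. miR-142a-3p, a miRNA of most blood cells, was higher in AML BM than in normal BM (2.02) and lower in AML spleen than in normal spleen (-1.73). Another member of the list, miR-223-3p, a defining miRNA of granulocytes and monocytes, held only 4 to 28 counts. Per count of the myeloid list, miR-196b-5p stood at 0.533 in normal BM and 0.389 in AML BM but at 0.0121 and 0.0104 in normal and AML spleen. Of the 2815 counts of this list in normal spleen, miR-142a-3p held 1704 and miR-142a-5p 1047. Against miR-223-5p alone, miR-196b-5p stood at 1.90 [1.3 to 2.84] in normal BM, 1.32 [1.06 to 1.64] in AML BM, 0.944 [0.573 to 1.55] in normal spleen and 0.5 [0.134 to 1.61] in AML spleen. This gap between the tissues was smaller, with a factor of 0.498 [0.261 to 0.944] from normal BM to normal spleen. miR-223-5p was the nearest known miRNA to miR-196b-5p over these same libraries, so the smaller gap follows from that likeness and is no separate result. Lymphocyte miRNAs summed to 16964, 43077, 106962 and 46424 CPM, with 2 of 6 higher in AML BM (median 0.76) and 5 of 6 lower in AML spleen (median -1.47) than in the normal library. miR-181a-5p held 10240 of the 12079 counts of this list in AML BM. Both calls there were miR-181 rows, miR-181a-5p (1.47) and miR-181b-5p (1.02). Uncalled were miR-150-5p (0.86), miR-181d-5p (0.66), miR-150-3p (-0.18) and miR-342-3p (-0.35). Erythroid miRNAs summed to 14071, 13937, 17960 and 15601 CPM, with 1 of 4 lower in AML BM and 1 of 3 higher in AML spleen, miR-451a in both (-2.15 and 1.96). Most of that sum in normal spleen was miR-486a-5p (8840 CPM) and miR-486a-3p (8572 CPM). By itself, miR-451a had 5126 CPM in normal BM, 1152 in AML BM, 474 in normal spleen and 1840 in AML spleen, lowest in normal spleen. Every row of these lists was detected in every library. No miRNA list marks macrophages alone, so the labelled cell type could not be checked beyond these lists, and their part in the results was not tested.

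The sum of the progenitor miRNAs was also lowest in normal spleen. The list of 7, which shares miR-126a with the stromal list and miR-99a and miR-100 with the relatives above, summed to 19062, 15759, 3099 and 11729 CPM in normal BM, AML BM, normal spleen and AML spleen. None of 6 compared was called in AML BM against normal BM, where 13.4% of all miRNAs were higher and 12.0% lower. In AML spleen against normal spleen 4 of 6 were higher (median log2 ratio 2.15), where 25.0% of all were (median -0.25). In normal spleen against normal BM 6 of 6 were lower, where 35.5% of all were. miR-125a-5p departed from the sum, with 559 CPM in normal spleen and 482 CPM in AML spleen, and was named after its values were seen. The shared rows miR-99a-5p, miR-126a-3p and miR-100-5p held 1434, 1165 and 807 of the 3953 counts of the list in normal BM. With miR-126a-5p, they were the 4 called higher in AML spleen than in normal spleen. Of the rows in this list alone, miR-125a-5p (-0.21) and miR-125b-5p (0.86) were not called there, and miR-130a-3p held at most 12 counts.

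Of 10 miRNAs with known high levels in leukaemia cells with MLL fusions, a list that contains miR-196b-5p, 6 were compared. In AML BM against normal BM 2 were lower, miR-9-5p (-1.19) and miR-20a-5p (-1.20), and none was higher, with a median of -0.18 that became 0.02 under the scaling without the 10 most abundant, where 1 was higher and 1 lower. In AML spleen against normal spleen miR-9-5p (2.57) and miR-21a-5p (1.44) were higher, and miR-92a-3p (-1.45) and miR-196b-5p (-1.74) lower, with a median of -0.37. These 2 higher and 2 lower of 6 stand beside 25.0% higher and 21.3% lower over all miRNAs in the spleen comparison, so the split was near the background. In BM the 2 lower of 6 stand beside 12.0%. These lists were drawn up with earlier results of the same data known.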

How the data were processed

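Small RNA was sequenced from sorted macrophages on an Illumina HiSeq instrument after column extraction of total RNA, per the labels' protocols. Per the file headers, the authors deposited read counts for each miRNA, not normalized. It also holds TPM, which the authors, per the file headers, give beside the counts. Each deposited TPM value equalled the count per 1000000 counts of its library (largest difference 4.66e-10), without a length term, and TPM was used only for this check. Aligner and genome build: not given in the sources used here. Sequences and coordinates are those of RefSeq and GENCODE M21 on GRCm38, matched by name (673 of 847 rows have a mature sequence).

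Libraries were assigned by title and scaled with TMM factors (edgeR 4.0.16, R 4.3.3). Ratios carry 95% exact conditional (Clopper-Pearson) intervals, levels exact Poisson intervals, and ratios of ratios exact conditional odds-ratio intervals (SciPy 1.17.1). These cover counting error only, since reads were counted without molecular identifiers as far as the headers show. The additive model used edgeR, with DESeq2 1.42.0 and limma 3.58.1 (prior count 2) as alternatives, on rows with at least 30 counts in some library. Its p-values weigh an effect against what the additive terms left unfitted in these libraries, and not against a spread between mice. Scripts were tested on simulated data. No row matched the counts of one of the 5 members with at least 30 counts in some library (tolerance 3% or 2 counts in each library).

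Named miRNAs are the 6 members, other rows from Hox-cluster hairpins, the relatives of miR-10, the 5 nearest profiles of each member with 30 counts, and the most abundant called members of the lists, of which marker lists are mostly given by their sums. Members and lists were chosen with earlier results of these data known.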

Additional observations from a re-analysis of the deposited data

Results flagged for a closer look

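The AML ratio had opposite signs in spleen and BM for 3 members, with both counting intervals leaving out equality. The gap, spleen minus BM on the log2 scale, was 2.36 for miR-10a-5p, 3.43 for miR-10b-5p and -2.59 for miR-196b-5p. Each rests on 1 library per group, and the difference was not tested over replicates. Opposite signs were not particular to the members, since miR-100-5p (gap 3.66) and miR-181a-5p (-2.62), among others, also had them. The share of all miRNAs with opposite signs was not counted.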

How the results depend on the processing

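Of 17 member ratios under 3 other scalings (total counts, totals without the 10 most abundant, DESeq2 size factors), 49 of 51 values kept their direction and their side of the 2-fold rule. On totals without the 10 most abundant, miR-196b-5p passed it in AML BM against normal BM (1.05) and miR-10a-3p changed sign there (0.13). These scalings moved all ratios of AML BM to normal BM by 0.20 at most on the log2 scale, of AML spleen to normal spleen by -0.24 to 0.25, and of normal spleen to normal BM by -0.16 to 0.24. The split of higher and lower calls in AML BM against normal BM was 29 and 26, and 39 and 19 on totals without the 10 most abundant. In AML spleen against normal spleen it was 54 and 46. DESeq2 size factors made that 51 and 68, total counts 64 and 36. In normal spleen against normal BM 72 were higher and 83 lower, a balance that turned to 86 and 78 with DESeq2 size factors and to 84 and 78 on totals without the 10 most abundant. With a minimum of 1 and of 100 counts the calls in AML BM against normal BM were 55 and 15 higher and 64 and 9 lower. In the same order they were 117 and 33 higher in AML spleen against normal spleen, 159 and 47 lower in normal spleen against normal BM, and 74 and 16 higher in AML spleen against AML BM, where 21 were lower at 100. The number of rows tested changed as well, in AML BM against normal BM from 216 to 495 and 131. What moved the calls was not tested. The additive model called 8 miRNAs for tissue with DESeq2, against 0 with edgeR; the cause was not tested. Depth limits miR-196a-5p, the 3p arms and miR-196b-5p, whose values in AML spleen rest on 5 counts. No replicate could be left out with 1 library per group: without any library the additive model keeps no residual degree of freedom. No paired analysis was possible with 1 library per group, and the labels carry no replicate numbers.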
